A study of Mus musculus with 5 samples.

Results

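Preadipocytes of the inguinal subcutaneous fat pad were compared between 18 d and 21 d of age, the last 2 ages before and at weaning that the series holds. They were chosen by measured values: a cell was kept when the UMIs (unique molecular identifiers, each standing for 1 captured transcript) of the fibrillar collagen genes Col1a1, Col1a2 and Col3a1 made up at least 0.02 of its total, when it held at least 1 UMI of Pdgfra, the platelet-derived growth factor receptor of adipocyte progenitors, and when it held 0 UMIs of Ptprc, Pecam1 and Mki67, which mark leukocytes, endothelium and dividing cells. This gave 4952 of the 46684 cells in the series, 1038 of 6312 at 18 d and 3914 of 11522 at 21 d.

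The study dissociated the stromal vascular fraction of inguinal white fat from male C57BL6/J mice at 7, 14, 18, 21 and 28 d and sequenced the cells by droplet 3′ single-cell RNA-seq. Each age was 1 library made from 2 mice, 1 from each of 2 litters, and no genetic change or drug was applied to either group. By the study's account the pups were presumed to take milk together with solid food at 14 and 18 d and were weaned at 21 d. Lymph nodes were not deliberately taken out of the pad, and dead cells were depleted before loading. With 1 library an age, the age and the library cannot be told apart, no test between ages was possible, and the intervals below cover counting error only.

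As background, preadipocytes are the fibroblast-like cells of fat that lay down matrix, answer inflammatory signals and can become adipocytes. Subsets that carry DPP4, ICAM1 or F3 (CD142) have been described, of which the ICAM1 cells lie closest to adipocytes. Cholesterol synthesis in such cells is run by SREBP2, which switches the genes of the pathway on together when sterol in the membrane falls.

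The kept cells carried the preadipocyte markers. Levels are given in CPM: for each age, a gene's UMIs were added up over all kept cells, divided by the UMIs of every gene in those cells and multiplied by 1000000. Summed over Lum, Apod, Dcn, Cd34, Ly6a, Pdgfrb, Lpl and Fstl1, the level was 18087 CPM at 18 d and 17793 at 21 d, and 100% of cells held at least 1 of these UMIs at both ages. Of these 8 markers Apod, a lipocalin, was more than 2-fold lower, at 305 and 134 CPM. Median depth was 12119 UMIs a cell at 18 d and 16732 at 21 d, over 12835773 and 66543632 UMIs in all. Near the thresholds, 175 cells at 18 d and 426 at 21 d had exactly 1 Pdgfra UMI, and the collagen term by itself removed 23 and 49 cells. In the 2 libraries 26 barcodes were shared, 2 of them in kept cells. Markers of adipocytes summed to 2.88 and 3.64 CPM, those of macrophages to 7.48 and 17.4, those of mast cells to 1.95 and 12.3 and those of T cells to 16.0 and 19.99, and no member of these 4 lists reached the level at which genes were compared. Markers of B cells summed to 58.4 and 87.6 CPM, of which Ighm made 52.3 and 80.5.

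A gene was compared when its mean over both libraries was at least 10 CPM, and it was counted as higher or lower when the ratio of 21 d over 18 d was at least 2 or at most 0.5. Of 7804 genes compared, 161 were higher at 21 d (2.06%) and 129 were lower (1.65%), and together they made 3.72%. The ratio lay between 0.634 and 1.66 for the central bulk of genes (5th to 95th percentile). Neighbouring libraries lay as far apart as 8.21% between 7 and 14 d, as little as 0.579% between 14 and 18 d, and 2.34% between 21 and 28 d, by the same rule with both directions counted.

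T cells of the same 2 libraries served to mark differences that were not particular to preadipocytes. T cells were cells with at least 2 UMIs of Cd3d, Cd3e and Cd3g and a collagen share under 0.02, 2800 at 18 d and 3371 at 21 d, and 2.96% of the 7303 genes compared in them were higher and 1.62% lower. A preadipocyte gene shifted alike when its T cell ratio was at least 1.5 in the same direction and its mean T cell level was at least 10 CPM. Of the 161 higher genes, 50 shifted alike, 59 did not and 44 were too low in T cells to read. Another 8 shifted alike at the carried-over level, at most 2 times what carried-over preadipocyte RNA would give in T cells. Of the 129 lower genes, 40 shifted alike, 21 did not and 68 were too low to read. Of the 90 genes alike in T cells 77 were also alike in B cells, 6 were not, and of the 80 not alike in T cells 18 were alike in B cells. Among genes under 2-fold apart and readable in T cells, 6.88% had a T cell ratio of at least 1.5 upward and 2.24% downward.

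T cells also held different amounts of RNA that preadipocytes make. The summed level of Dcn, Lum, Pcolce, Fstl1 and Serpinf1 in T cells was 0.384% of that in preadipocytes at 18 d and 4.51% at 21 d, the highest of the 5 libraries (0.649% to 1.67% at 7, 14 and 28 d). The part of such carried-over RNA in the ratios was not tested, and T cell levels are given beside those of preadipocytes where they bear on a gene.

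**Figure D1:**
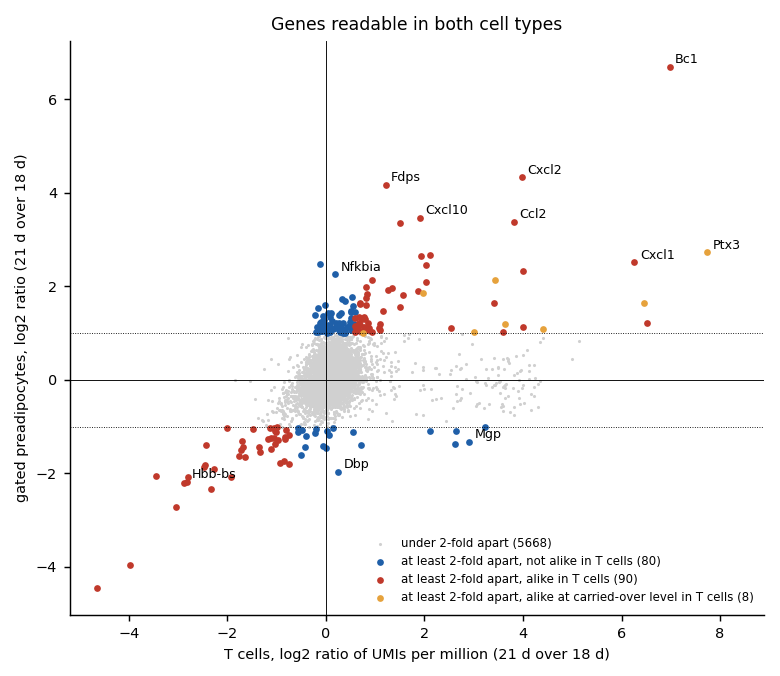
Each point is a gene that could be read in both cell types, placed by its log2 ratio of CPM (21 d over 18 d) in T cells on the x axis and in kept preadipocytes on the y axis, with dotted lines at 2-fold. Bc1, Cxcl2, Ccl2 and Hbb-bs moved the same way in both cell types, while Nfkbia and Dbp lie beyond 2-fold in preadipocytes and near 0 in T cells.

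Genes of cholesterol synthesis and uptake were higher at 21 d than at 18 d. Of 21 genes on this list 16 were compared, 13 were higher and 0 lower, against 2.06% and 1.65% of all genes compared. This list and those below were chosen with earlier results of these data known, so such counts are a description. The median log2 ratio was 1.45 against 0.02 over all genes compared. Fdps, the enzyme that makes farnesyl diphosphate, stood at 5.06 CPM at 18 d and 91.6 at 21 d, an 18.1-fold difference (95% interval of counting 14.2 to 23.5). Sqle, squalene epoxidase, went from 4.91 to 28.5, 5.80-fold (4.51 to 7.57). Further higher members were Nsdhl, Cyp51, Idi1, Mvk, Pmvk, Hmgcs1, Msmo1, Srebf2 and Stard4, with ratios between 2.07 for the sterol carrier gene Stard4 and 3.62 for Nsdhl. Insig1, which holds SREBP in the endoplasmic reticulum, was under the 2-fold mark at 24.4 and 41.3 CPM, as was Sc5d at 30.3 and 52.9. No measured member was below 18 d.

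These levels were not held at 28 d. Fdps stood at 38.1, 7.34 and 18.7 CPM in the 7, 14 and 28 d libraries, so that the 21 d library was the highest of the 5 for this gene. Sqle was at 31.6, 8.30 and 4.12 at the same ages. Summed over the list, the level was 860, 302, 246, 696 and 239 CPM at 7, 14, 18, 21 and 28 d, so 7 d and 21 d were the high libraries. In T cells the list summed to 244 at 18 d and 361 at 21 d. Fdps went from 12.1 to 28.0 in T cells, and 5 of the 13 higher genes (Fdps, Cyp51, Idi1, Hmgcs1 and Msmo1) counted as alike in T cells. Stard4, at 14.4 and 13.6 CPM in T cells, Srebf2 and Pmvk did not, and 5 others, Sqle, Nsdhl and Mvk among them, were too low in T cells to read. Fdps lies on chr3:89093588-89101959 (minus strand, GENCODE M21 on GRCm38).

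The difference in cholesterol genes was spread over many cells. With each cell thinned to 5000 UMIs, the median cell held 1 UMI of the list at 18 d and 3 at 21 d, 60.9% and 89.5% of cells held any, and the 10% of cells with most held 43.4% and 29.5% of the UMIs. At 2000 UMIs a cell, Fdps was seen in 1.08% of 1016 cells at 18 d (95% exact interval 0.542 to 1.93) and 15.5% of 3899 at 21 d (14.4 to 16.7), against 2.11% and 4.74% of T cells at the same depth. Without thinning these shares were 5.68% and 58.3% in preadipocytes and 6.46% and 9.94% in T cells, whose median depths were 5229 and 4031 UMIs.

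Kept cells were further placed in DPP4, ICAM1 and F3 classes by scores over short marker lists, and the ratios of the cholesterol genes were larger in the DPP4 and F3 classes than in the ICAM1 class. The difference between classes was not tested, since each age was 1 library. A class here is a range of a score and not a cell type. The share of all genes called within a class is not given here, so the class counts below have no background beside them. In the DPP4 class (462 and 2139 cells) 14 of 15 compared members were higher and the median log2 ratio was 2.04, and in the F3 class (251 and 691 cells) it was 13 of 14 and 1.92. In the ICAM1 class (203 and 714 cells) 3 of 18 were higher and the median was 0.39. With the 3 classes weighted alike 9 of 16 members were higher and 0 lower, at a median of 1.15. Over all kept cells it was 13 of 16 and 1.45. The ICAM1 cells stood higher to begin with: the list summed to 627 CPM in them at 18 d, against 160 in the DPP4 class and 159 in the F3 class. At 21 d the 3 classes stood at 805, 699 and 594 in the order ICAM1, DPP4, F3. Sqle, as an example, was at 18.0 CPM in ICAM1 cells and 2.02 in DPP4 cells at 18 d, and at 31.8 and 30.5 at 21 d. Idi1 was at 46.5 and 2.17 at 18 d and at 58.2 and 33.9 at 21 d.

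**Figure D2:**
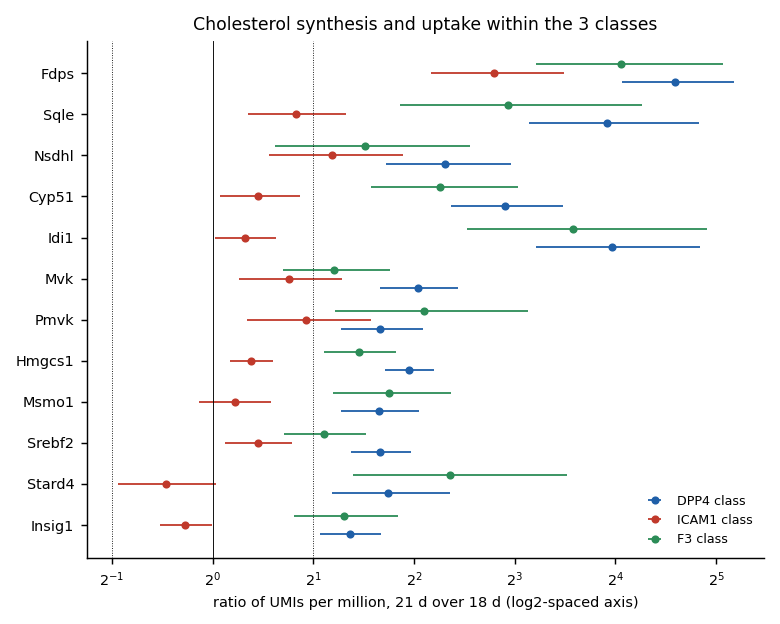
Ratios of CPM (21 d over 18 d, log2-spaced x axis) of 12 of the 16 measured cholesterol genes in the DPP4, ICAM1 and F3 classes, with 95% intervals of counting as bars and dotted lines at 2-fold. The DPP4 and F3 points of Fdps, Sqle, Cyp51 and Idi1 lie beyond 4-fold, while ICAM1 points lie closer to 1, with Fdps at 6.92 the highest of them.

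**Figure D3:**
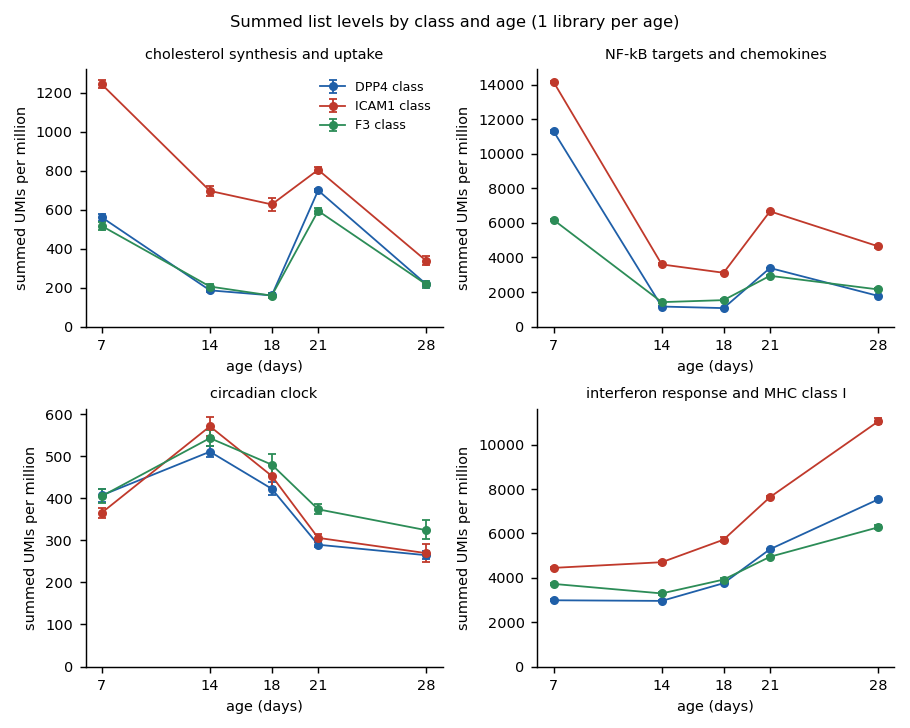
Summed CPM of 4 gene lists in the DPP4, ICAM1 and F3 classes at each age, 1 library an age, with 95% intervals of counting as bars. The cholesterol list has high points at 7 and 21 d in every class, and at 18 d the ICAM1 class stands at 627 against 160 and 159 in the others.

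Windows before the gene starts were read for the letters that SREBP proteins are known to bind. The motif TCACNCCAC was searched on both strands in the 250 bases before each start (RefSeq, build GRCm38.p6), which it matched in 1.22% of 27025 genes. Of the 13 higher cholesterol genes 8 had a window and 1 held the motif, Hmgcs1, which makes the first committed HMG-CoA of the pathway. Of 6 other list members with a window 0 held it. The window of Hmgcs1, chr13:119690101-119690350 on the plus strand, is shown because it alone held the motif, with the match in capitals. Hmgcs1 went from 37.5 to 92.4 CPM.
Hmgcs1: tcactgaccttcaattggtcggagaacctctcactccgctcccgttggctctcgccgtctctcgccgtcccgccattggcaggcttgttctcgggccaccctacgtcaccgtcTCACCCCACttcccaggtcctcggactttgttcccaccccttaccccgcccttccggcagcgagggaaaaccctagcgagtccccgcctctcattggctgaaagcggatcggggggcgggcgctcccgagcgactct

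Chemokines and other genes switched on by NF-kB were also higher at 21 d. Of 19 members compared 12 were higher and 0 lower, against 2.06% and 1.65% of all genes compared, with a median log2 ratio of 1.34. Ccl2, which draws monocytes, stood at 26.2 CPM at 18 d and 272 at 21 d, 10.4-fold (9.32 to 11.6). The neutrophil attractant Cxcl1 went from 138 to 791, 5.74-fold (5.47 to 6.02), and Cxcl2 from 2.57 to 51.9, 20.2-fold (14.4 to 29.4). Cxcl10, which attracts activated T cells, went from 21.6 to 239, 11.1-fold (9.84 to 12.5). The cytokine gene Il6 went from 24.1 to 119 and Ptgs2, cyclooxygenase 2, from 28.5 to 151. Nfkbia, the inhibitor that NF-kB itself induces, went from 121 to 579, 4.78-fold (4.54 to 5.03). The remaining higher members, Ccl7, Nfkbiz, Tnfaip3, Tnfaip6 and Birc3, had ratios between 2.31 and 5.04. Cxcl12, a chemokine of stromal cells, stood at 449 and 302, and Ccl11 at 243 and 233.

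For 11 of the 12 higher genes the highest level of the 5 libraries was at 7 d, and for Ptgs2 it was at 21 d (82.8 at 7 d). Ccl2 was at 2210, 49.2 and 69.7 CPM in the 7, 14 and 28 d libraries, and Cxcl1 at 3365, 265 and 231. Summed over the list the levels were 11382, 1794, 1683, 4030 and 2422 CPM from 7 to 28 d. The median cell, thinned to 5000 UMIs, held 6 UMIs of the list at 18 d and 14 at 21 d, and the 10% of cells with most held 35.2% and 33.1% of them. All 3 classes showed the difference: the sum went from 1069 to 3388 in DPP4 cells, from 3112 to 6666 in ICAM1 cells and from 1530 to 2937 in F3 cells. Icam1, itself known as a target of NF-kB, helped to name the ICAM1 class. Il6 was 6.24-fold higher in DPP4 cells, 4.68-fold in ICAM1 cells and 4.29-fold in F3 cells.

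Several of these genes were also higher in T cells of the 21 d library. Cxcl1 stood at 1.12 CPM in T cells at 18 d and 86.3 at 21 d, Tnfaip6 at 0.829 and 76.2, and Ccl2 at 2.13 and 30.2, and 7 of the 12 higher genes counted as alike. At 2000 UMIs a cell Cxcl1 was seen in 10.4% and 43.6% of preadipocytes and in 0.188% and 15.8% of T cells (unthinned 19.1% and 74.6%, and 0.357% and 30.1%). Nfkbia stood at 249 and 285 in them, a ratio of 1.14, and at 183 and 278 in B cells, a ratio of 1.52 that counts as alike. Birc3 stood at 38.6 and 41.2 in T cells and at 20.3 and 51.4 in preadipocytes. Il6 and Ptgs2 were too low in T cells to read by their mean level, but stood higher there at 21 d. Il6 was at 0.178 and 14.97 in T cells and Ptgs2 at 2.84 and 13.0. In B cells Il6 stood at 0.2015 and 20.95, which counts as alike. Ptgs2 stood at 3.02 and 20.7 there, alike at the carried-over level. The part of carried-over RNA in the T cell and B cell levels was not tested.

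The NF-kB letters GGGNNTTTCC were found, on either strand, in the 250 bases before the start of 1.65% of all genes. Of the 12 higher members 9 had a window and 5 of these held the motif (Cxcl1, Cxcl2, Il6, Nfkbia and Tnfaip3), and of 7 other list members with a window 1 did. The windows of Cxcl2 (chr5:90903649-90903898), Cxcl1 (chr5:90890995-90891244) and Il6 (chr5:30012864-30013113), all on the plus strand of GRCm38.p6, are shown because these genes were 20.2-, 5.74- and 4.93-fold higher, with each match in capitals. A match is a description of letters and not a shown binding site. The list was made of NF-kB targets and chemokines, so its share with the motif is not independent of how it was made.
Cxcl2: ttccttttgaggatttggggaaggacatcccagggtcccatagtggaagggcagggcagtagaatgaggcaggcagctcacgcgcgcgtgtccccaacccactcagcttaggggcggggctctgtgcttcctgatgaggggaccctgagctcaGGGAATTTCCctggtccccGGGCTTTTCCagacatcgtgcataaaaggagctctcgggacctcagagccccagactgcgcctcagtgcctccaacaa
Cxcl1: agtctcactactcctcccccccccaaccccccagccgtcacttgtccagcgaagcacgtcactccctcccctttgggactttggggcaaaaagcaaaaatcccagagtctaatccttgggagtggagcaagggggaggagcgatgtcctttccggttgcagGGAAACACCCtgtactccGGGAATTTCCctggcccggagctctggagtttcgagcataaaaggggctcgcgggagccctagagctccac
Il6: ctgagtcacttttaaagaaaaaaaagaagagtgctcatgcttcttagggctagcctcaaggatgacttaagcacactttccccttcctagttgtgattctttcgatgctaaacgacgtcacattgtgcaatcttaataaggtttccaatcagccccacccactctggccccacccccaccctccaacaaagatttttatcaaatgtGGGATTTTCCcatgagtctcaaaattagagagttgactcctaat

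Immediate-early genes, which answer stimulation and tissue handling within minutes, were higher on balance. Of 19 compared 4 were higher and 0 lower, against 2.06% and 1.65% of all genes compared, with a median log2 ratio of 0.66. Atf3 stood at 149 CPM at 18 d and 466 at 21 d, Klf6 at 209 and 530, Cyr61 at 161 and 505, and Ier3 at 31.1 and 121. In T cells Atf3, Klf6 and Ier3 shifted alike, and Cyr61 did so at the carried-over level. Fos, the best known of the group, stood at 2160 and 2228, a ratio of 1.03. Within classes the summed level did not move as one, at 5990 and 12354 in DPP4 cells, 13062 and 19291 in F3 cells, and 26648 and 25874 in ICAM1 cells. By member the median log2 ratio was above 0 in each class. It was 1.37 in DPP4 cells (14 of 19 higher), 0.95 in F3 cells (9 of 20) and 0.46 in ICAM1 cells (4 of 19). For these class counts too, the share of all genes called within a class is not given here. Heat shock genes had 0 of 11 members at least 2-fold apart, at a median log2 ratio of 0.57, with Dnajb1 at 159 and 318.

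Genes of the interferon response and MHC class I, taken as 1 list, were moderately higher on balance. Of 31 compared 8 were higher and 1 lower, against 2.06% and 1.65% of all genes compared, with a median log2 ratio of 0.56. The ratio was above 1 for 27 of the 31 and below 1 for 4. Ifi27l2a, a small interferon-induced protein, stood at 468 CPM at 18 d and 1220 at 21 d, 2.61-fold (2.54 to 2.68), after 81.6 at 7 d and 271 at 14 d, and was at 1447 at 28 d. In T cells it stood at 506 and 432, while Irf1 and Ifit1 shifted alike there. Bst2, tetherin, went from 93.0 to 197 and was at 289 at 28 d, and Psmb8, a subunit of the immunoproteasome, went from 35.7 to 76.0. Ifit1 went from 12.7 to 29.7, Ifit3 from 9.12 to 20.3, Irf1 from 49.2 to 124, Iigp1 from 20.6 to 44.2 and Usp18 from 7.01 to 14.3. Ifitm1 was the lower member, at 21.6 and 9.81 (log2 ratio -1.14), a call lost under 4 alternatives, with -0.28 under equal class weights. B2m, of MHC class I, stood at 643 and 441, lower by less than 2-fold. Summed over the list the levels were 3880, 3444, 4205, 5705 and 7886 CPM from 7 to 28 d, so 21 d lay between its neighbours. The letters TTTCNNTTTC, which interferon-induced factors are known to bind, were in the 250 bases before the start of 3.46% of all genes, of 3 of the 6 called members with a window (Ifit1, Ifit3 and Bst2) and of 10 of 21 other members. Among complement genes 2 of 8 were higher: Cfb, factor B of the alternative pathway, at 5.84 and 30.5 and C3 at 191 and 436, with 39.3 and 947 at 28 d. Ifi205, an interferon-inducible gene off these lists, stood at 83.5 and 365, 4.37-fold (4.11 to 4.65), and at 369 at 28 d. Both C3 and Ifi205 shifted alike in T cells at the carried-over level.

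Some genes of the circadian clock were lower at 21 d. In the clock, CLOCK and BMAL1 (Arntl) drive the Per, Cry and Rev-erb repressors and the PAR-domain factors Dbp and Tef, which feed rhythm to other genes. Of 13 members compared 6 were lower and 0 higher, against 1.65% and 2.06% of all genes compared, with a median log2 ratio of -0.31. Per3 stood at 52.4 CPM at 18 d and 9.44 at 21 d, 5.56-fold lower (ratio 0.180, 0.161 to 0.201). Dbp went from 46.5 to 11.9, Tef from 41.4 to 11.4, Nr1d2 (Rev-erb beta) from 38.6 to 11.6, Nr1d1 (Rev-erb alpha) from 28.4 to 11.5 and Bhlhe41 from 16.0 to 5.88. Other members stood higher at 21 d without reaching 2-fold: Arntl at 14.2 and 21.8, Nfil3 at 16.4 and 29.0, and Bhlhe40, the paralogue of Bhlhe41, at 26.4 and 51.7. Clock at 54.2 and 49.8, Cry2 at 29.8 and 30.0, Cry1 at 12.5 and 14.2 and Per1 at 45.3 and 36.6 were close to level.

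Of the 6 lower clock genes Dbp was high enough to be read in T cells, and it did not shift alike, at 14.0 and 16.6 CPM. Below that level, Tef stood at 7.52 and 7.68 in T cells and Per3 at 2.43 and 2.60. Per3 was seen in 10.4% of preadipocytes at 18 d (8.62 to 12.5) and 1.82% at 21 d (1.42 to 2.29) at 2000 UMIs a cell, and in 0.565% and 0.612% of T cells (unthinned 37.7% and 12.9%, and 1.39% and 1.22%). The ratio of Per3 was 0.196, 0.180 and 0.202 in the DPP4, ICAM1 and F3 classes. Dbp was 4.54-fold lower in DPP4 cells, 2.54-fold in ICAM1 cells and 3.35-fold in F3 cells. Nr1d1 was 3.70-fold lower in DPP4 cells and stood at 39.1 and 33.9 in F3 cells. At 28 d Per3 was at 11.2, Dbp at 8.68 and Tef at 10.7, closer to 21 d than to 18 d, while at 14 d they stood at 68.7, 51.8 and 53.1, above the 18 d library. The hour of day at which each pad was collected was not given in the sources used here, so hour and age cannot be told apart.

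Among the 6 lower clock genes, all with a window of 250 bases, the E-box CACGTG was present in 2 (Tef and Bhlhe41), in 3 of 9 other members and in 6.86% of all genes, and the D-box TTATGTAA in 1, in 0 of 9 other members and in 0.98% of all genes, each searched on both strands. That gene was Per3, with 2 D-box matches on chr4:151044666-151044915 (minus strand, GRCm38.p6). Its window is shown, with the matches in capitals, because it alone of the 6 held the D-box. Per3 also had the lowest ratio of the list. Part of the gene overlaps Camta1 on the same strand.
Per3: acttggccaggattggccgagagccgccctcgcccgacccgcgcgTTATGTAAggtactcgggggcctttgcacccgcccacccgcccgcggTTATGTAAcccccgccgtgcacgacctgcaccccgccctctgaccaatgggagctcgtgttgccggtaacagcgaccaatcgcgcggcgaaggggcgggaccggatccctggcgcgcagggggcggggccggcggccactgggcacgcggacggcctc

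Several imprinted genes and the IGF carrier gene Igfbp3 were lower at 21 d. Dlk1, the imprinted inhibitor of adipocyte differentiation, stood at 82.3 CPM at 18 d and 13.3 at 21 d, 6.21-fold lower (ratio 0.161, 0.147 to 0.176), and stood at 741, 244 and 3.68 in the 7, 14 and 28 d libraries. Dlk1 lies on chr12:109452823-109463336 (plus strand, GENCODE M21 on GRCm38). Most of it was in ICAM1 cells, at 384 and 55.1, against 3.72 and 1.63 in DPP4 cells. H19, the imprinted non-coding RNA, went from 907 to 352 after 1994 at 14 d and was at 72.7 at 28 d; it was lower in DPP4 cells (1291 and 411) and ICAM1 cells (1189 and 436) and stood at 40.2 and 28.5 in F3 cells. The imprinted zinc finger gene Zim1 went from 128 to 44.3. On the imprinted list 3 of 16 members were lower and 0 higher, against 1.65% and 2.06% of all genes compared, at a median log2 ratio of -0.15. Summed over this list the level did not fall, at 6495 CPM at 18 d and 6663 at 21 d. Peg3 at 846 and 500 and Plagl1 at 130 and 83.7 were under 2-fold lower, Mest stood at 53.3 and 53.9, and Meg3 at 1610 and 2227. Igfbp3, the main carrier of IGF1, went from 723 to 232, 3.12-fold lower. Unlike Dlk1 it had risen up to 18 d, and stood at 142, 442.5 and 244 in the 7, 14 and 28 d libraries. Igfbp3 was the single called member of 15 on the growth hormone and IGF list, with a ratio of 0.212 in ICAM1 cells, 0.308 in DPP4 cells and 0.587 in F3 cells. Igf1 itself stood at 527 and 616.

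Matrix genes tended to be lower, mostly by less than 2-fold. Of 37 glycoproteins and proteoglycans 2 were lower and 0 higher, with a median log2 ratio of -0.37. Of 14 collagens outside the rule 1 was lower, with a median of -0.29. Over all genes compared 2.06% were higher and 1.65% were lower. In the DPP4, ICAM1 and F3 classes the medians were -0.25, -0.21 and -0.14 for glycoproteins and proteoglycans, and -0.12, -0.01 and -0.50 for collagens. Mfap4, a microfibril protein, stood at 269 CPM at 18 d and 87.6 at 21 d, biglycan (Bgn) at 1062 and 496, and Col4a2 of the basement membrane at 433 and 204. With equal class weights Bgn and Col4a2 were under 2-fold lower, at log2 ratios of -0.78 and -0.81. Ltbp4, which tethers latent TGFb to the matrix, stood at 342 and 90.7, 3.77-fold lower (ratio 0.265, 0.255 to 0.276), and was lower in each class: 140 and 45.7 in DPP4 cells, 132 and 39.7 in ICAM1 cells, 925 and 331 in F3 cells. Mfap4 was lower in F3 cells (866 and 313) and ICAM1 cells (235 and 50.9) and at 37.1 and 31.3 in DPP4 cells. Of 18 collagen-processing enzymes 0 were 2-fold apart. Of 18 matrix proteases and inhibitors 3 were higher and 0 lower, with a median log2 ratio of 0.096. Among the higher were Adamts4 at 9.27 and 24.2 and Adamts1, which shifted alike in T cells at the carried-over level. Has1, a hyaluronan synthase, stood at 39.7 and 207. In T cells, where it was too low to read, Has1 stood at 0.178 and 18.3. In B cells it stood at 0 and 31.9, which counts as alike. The part of carried-over RNA in these values was not tested. The collagens that chose the cells stood at 37111 and 22939 for Col1a1, 32395 and 31935 for Col1a2 and 51214 and 34927 for Col3a1, values that the rule itself used.

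Some members of signalling lists passed 2-fold, where over all genes compared 2.06% were higher and 1.65% lower. Of 19 Wnt genes 1 was lower, the secreted inhibitor Dkk3, at 38.6 and 14.4 CPM. Of 30 TGFb genes Ltbp4 was lower and Bmp2 higher, at 11.8 and 27.7. Of 14 glucocorticoid-response genes Angptl4, a lipase inhibitor, was higher at 108 and 233 and Ddit4 lower at 22.1 and 9.05, and both shifted alike in T cells. Of 12 genes of glycolysis and hypoxia Hk2, hexokinase 2, was higher at 31.9 and 109 and Gapdh at 236 and 481, while Bnip3 was lower at 22.3 and 9.47. Of 18 genes of folding in the endoplasmic reticulum Hspa5 (BiP) was higher, at 433 and 881, and shifted alike in T cells. Hk2 was higher in each class, 3.23-fold in DPP4 cells, 2.64-fold in ICAM1 cells and 5.05-fold in F3 cells.

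Adipocyte genes were level on balance. Of 22 compared 2 were higher and 0 lower, against 2.06% and 1.65% of all genes compared, with a median log2 ratio of -0.00. Fabp4, the fatty acid carrier of adipocytes and endothelium, stood at 308 CPM at 18 d and 628 at 21 d, and Car3 at 32.3 and 70.6. T cells carried both too, Fabp4 at 28.8 and 346 and Car3 at 10.3 and 165, so both counted as alike. Both calls were lost without the collagen term of the rule (log2 ratios 0.97 for Fabp4 and 0.88 for Car3) and with cells thinned to 5000 UMIs (0.96 and 0.43). Fabp4 also fell under 2-fold with Pdgfra at 2 or more UMIs (0.99) and without cells that held immune UMIs (0.79), and Car3 with every cell weighted alike (0.94). Fabp4 was at 1582 and 3341 in ICAM1 cells, a class that Fabp4 helped to name. Apoe stood at 1115 and 621. Of the thermogenic genes 1 of 12, Ebf2, was measured, at 169 and 128. None of 55 nuclear genes of oxidative phosphorylation was 2-fold apart (median log2 ratio 0.22), and none of 13 mitochondrial transcripts (0.46), of which mt-Atp6 stood at 4515 and 8365 in preadipocytes and 7947 and 14874 in T cells.

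Other genes at the ends of the range belonged to no list. Ccdc152 had the lowest ratio: it stood at 33.7 CPM at 18 d and 1.31 at 21 d, 25.8-fold lower, and at 6.22 and 0.317 in T cells. Its T cell level was too low to read, so a like shift was not judged, and in B cells it stood at 4.84 and 0.499. Ccdc152 lies opposite Selenop on chromosome 15, a gene at 538 and 343 in the same preadipocytes. Whether reads of the pair were split between strands was not tested. Plac9b went from 25.5 to 4.13 and has the near-identical copy Plac9a, and whether reads were split between them was not tested. Dact2, a Wnt modulator, went from 35.5 to 6.31, and in DPP4 cells from 69.7 to 10.2. Krtdap went from 122 to 30.1, nearly all of it in DPP4 cells (242 and 50.1). Hmcn2, a hemicentin of the matrix, went from 23.1 to 5.23 and lay in F3 (58.5 and 15.8) and ICAM1 cells (33.8 and 4.84).

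At the other end stood Fam71a, at 1.48 and 25.8 CPM (17.4-fold, 11.1 to 29.0), and Lsmem1, at 3.43 and 30.7 (8.96-fold, 6.65 to 12.4). Lsmem1 was at 17.5 and 31.7 in ICAM1 cells and at 0.155 and 29.8 in DPP4 cells, the first of these a single UMI. Gng10, a G protein gamma subunit, went from 4.21 to 23.3. All 3 were too low in T cells and B cells to read, so a like shift was not judged. In T cells Fam71a stood at 0.237 and 1.84, Lsmem1 at 0.533 and 2.60 and Gng10 at 2.725 and 6.73. In B cells Fam71a stood at 0.2015 and 1.995, Lsmem1 at 0.806 and 2.99 and Gng10 at 5.04 and 13.97. Ptx3, a pentraxin of innate immunity, went from 42.6 to 283, 6.64-fold (6.10 to 7.25), and stood at 560, 45.6 and 147 in the 7, 14 and 28 d libraries. In T cells Ptx3 stood at 0.118 and 25.2, within the carried-over level, which allows 2 times the carried-over share. In B cells it stood at 0 and 52.4, above that level. The part of carried-over RNA in these values was not tested.

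**Figure D4:**
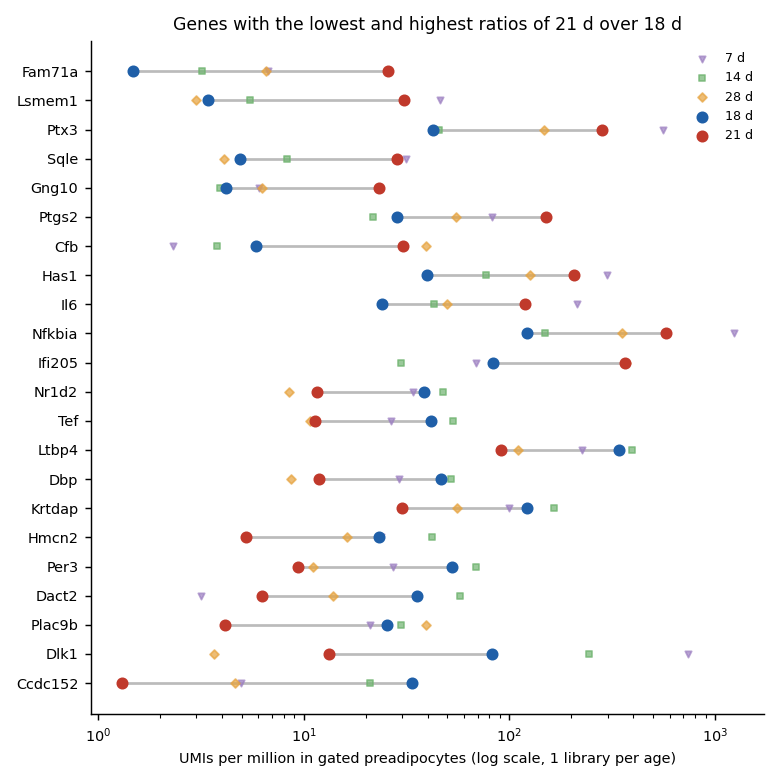
CPM (log x axis) at all 5 ages, 1 library an age, of 11 of the 12 genes with the lowest and 11 of the 12 with the highest ratio of 21 d over 18 d. Genes that shifted alike in T cells above the carried-over level were left out. Genes too low in T cells to read were kept, so for them a like shift in T cells was not judged. For Nr1d2, Tef, Dbp and Per3 the 28 d point lies near the 21 d point and the 14 d point at or above the 18 d point, while for Sqle and Lsmem1 the 28 d point lies beside the 18 d point.

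**Figure D5:**
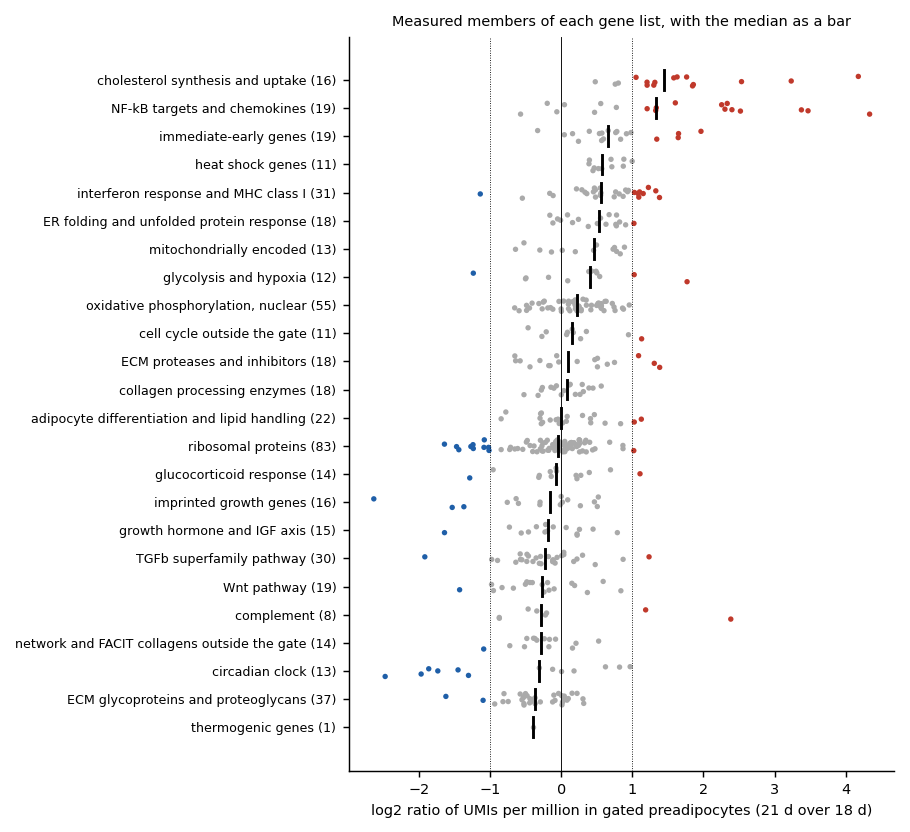
Log2 ratios (21 d over 18 d) of every measured member of the 24 gene lists, with the number measured in brackets, the median as a black bar, members at least 2-fold higher in red and lower in blue, and dotted lines at 2-fold. Cholesterol synthesis (median 1.45) and NF-kB targets (1.34) stand at the top, and clock genes are split, with 6 members beyond 2-fold lower and Bhlhe40 at 0.97 on the other side.

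Genes that shifted alike in T cells included those of hemoglobin and of the ribosome. Hemoglobin transcripts were lower in both: Hbb-bs stood at 326 and 72.0 CPM in preadipocytes and 186 and 26.3 in T cells, and Hba-a1 at 96.1 and 27.4 against 72.3 and 13.1. In B cells of the same libraries they went the other way, Hbb-bs at 256 and 841 CPM and Hba-a1 at 74.9 and 310. All 4 hemoglobin genes were higher in B cells. In preadipocytes all 4 hemoglobin genes were lower, although 10.1% of kept cells at 18 d and 21.1% at 21 d held at least 1 such UMI. Ribosomal protein genes and pseudogenes made 11 of the 40 lower genes that shifted alike. Of 83 ribosomal protein genes 10 were lower and 1 higher, against 1.65% and 2.06% of all genes compared, with a median log2 ratio of -0.04. Rpl35 stood at 1672 and 536 in preadipocytes and 3733 and 1194 in T cells. Ccdc85b went from 31.1 to 2.00 and from 27.9 to 1.78. Bc1, a short non-coding RNA, went from 0.390 to 40.4 in preadipocytes, 104-fold (44.4 to 320), and from 0.178 to 22.4 in T cells. Rnaset2a and Rnaset2b, near-identical copies, went from 15.7 to 100 and from 11.0 to 68.7, with T cell ratios upward as well.

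The direction of most called genes was shared by the classes. Genes that named a class were left out (Fabp4, Mgp and Fmo2 among called genes). Of the 160 higher genes that remained 158 had a ratio above 1 in each of the DPP4, ICAM1 and F3 classes and 71 were at least 2-fold higher in each. Of the 127 lower genes that remained 105 were below 1 in each class and 47 were at least 2-fold lower in each. The genes were called on the summed UMIs of kept cells, most of which lie in these classes, so the call itself favours a like direction in each class. No such count over all genes compared is given here, so whether the classes share direction beyond what the call sets was not tested. The classes held 44.5%, 19.6% and 24.2% of kept cells at 18 d and 54.7%, 18.2% and 17.7% at 21 d, in the order DPP4, ICAM1, F3. Fabp4 of the ICAM1 list was higher and Mgp and Fmo2 of the F3 list were lower at 21 d, so these shares rest on genes that themselves differed, and no difference in share is drawn from them. Mgp stood at 4701 and 2858 CPM in F3 cells and at 4.35 and 12.4 in DPP4 cells. Of the mural markers Acta2, at 13.8 and 6.42, and Notch3, at 20.1 and 8.09, were lower in kept cells.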

How the data were processed

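The authors aligned reads with Cell Ranger 3.1.0 to GRCm38 (mm10), removed doublets called by Scrublet and cells with under 200 or over 6000 genes or over 20% mitochondrial UMIs, and deposited raw UMI counts of 31053 genes. No further doublet caller was run. Counts were summed over kept cells of each age and scaled to CPM, with a count of 0 set to 3 in ratios. Ratios carry exact conditional and shares exact Clopper-Pearson intervals at 95%, for counting error only. Classes were assigned by mean z-scores over the DPP4, ICAM1 or F3 markers, above 0 and 0.3 above the next, and 61 cells at 18 d and 243 at 21 d lay within 0.1 of that margin. The carried-over level was 2 times the preadipocyte level multiplied by the carried-over share.

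The rule for kept cells, the lists and the markers were chosen with earlier results of these data known. Genes were named by rule when among the 12 highest or lowest called ratios not alike in T cells above the carried-over level, the 4 highest or lowest alike (genes of the rule, Gm and Rik symbols left out of both), or the 2 highest or lowest of a list. The first of these groups takes in genes too low in T cells to read. Other genes were named after their values were seen, and some genes that the rule names are not reported here. The ratio code was checked on simulated counts. Python 3.11.15, numpy 2.4.6, scipy 1.17.1 and pandas 2.3.3 were used. Alternatives covered scaling, filters, the rule, depth and weights.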

Additional observations from a re-analysis of the deposited data

Results flagged for a closer look

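Arl4d, Bgn, Col4a2, Gpc3, H19 and Mgp were singled out because they were at least 2-fold lower in preadipocytes of 21 d and at least 1.5-fold higher in T cells of the same library. The difference between the cell types was not tested, since each age was 1 library. Arl4d, a small GTPase, had a log2 ratio of -1.39 in preadipocytes and 0.71 in T cells, where it stood at 7.64 and 12.5 CPM. Gpc3, a glypican, had -1.01 in preadipocytes, at 980 and 486 CPM, and 3.23 in T cells, at 4.03 and 37.7. For Bgn the values were -1.10 and 2.64, for Col4a2 -1.09 and 2.10, for H19 -1.37 and 2.61 and for Mgp -1.32 and 2.91. Of these 6 genes Arl4d had the lowest T cell log2 ratio. The carried-over share in T cells was 0.384% at 18 d and 4.51% at 21 d, and its part in the T cell ratios was not tested.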

How the results depend on the processing

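A filter at a mean of 3 CPM in place of 10 gave 249 higher and 262 lower genes, and one at 50 gave 70 and 44, since the filter sets how many genes are compared. Under the 8 other alternatives for scaling, rule, depth and weights, higher genes numbered 147 to 171 and lower genes 117 to 157, against 161 and 129. Asking for a T cell ratio of 2 gave 57 genes that shifted alike, against 90, and the other settings gave 82 to 116. Thinning each cell to 5000 UMIs before the rule gave shares of kept cells of 25.9% at 18 d and 47.2% at 21 d, with shallower cells left out. Without a margin between class scores the ICAM1 share was 22.2% at 18 d and 20.4% at 21 d, the DPP4 share at 21 d 56.97% and the F3 share at 21 d 20.03%, as unassigned cells then join a class, and with cells thinned the DPP4 share at 21 d was 51.6%. Among 928 values of 116 named genes under alternatives, 157 lay outside their counting interval and the 59 called genes among them kept their sign, while Fos, not called, changed sign under 2 settings. Of these 59, 10 fell under 2-fold in at least 1 setting: Fabp4, Car3, Ifitm1, Col4a2, Bgn, Dkk3, C3, Gapdh, Hspa5 and Rps2. Among 240 list medians 24 lay more than 0.1 from the value given, and 9, in 4 lists, changed sign: adipocyte (4 settings, up to 0.11), glucocorticoid (3 settings, up to 0.21), cell cycle (-0.21 with the filter at 50) and matrix proteases (-0.03 with the filter at 3). No paired analysis was possible because each age was a single pooled library. Depth limits genes under 10 CPM, and mouse, litter, library and age cannot be told apart.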

Other observations

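Of the fatty acid genes on the adipocyte list, Fasn had a ratio of 1.33, Acaca of 1.53 and Scd1 of 0.969, all under 2-fold. The genes that follow are on no list and were chosen after their values were seen, for being at least 2-fold apart, so their number says nothing of a pathway. Fads1, a fatty acid desaturase, stood at 24.8 CPM at 18 d and 79.6 at 21 d. Elovl6, an elongase, stood at 12.8 and 30.8, Lpcat3, which remodels phospholipids, at 22.9 and 46.3, and Ebp, a sterol isomerase, at 42.2 and 84.7. Tmem97 stood at 21.0 and 54.4 and Erg28 at 43.8 and 89.6. Abca1, the cholesterol efflux pump, and Mylip, a ubiquitin ligase, were lower. Abca1 stood at 128 and 41.9, with 14.4 and 10.2 in T cells, and was 3.48-fold lower in DPP4 cells, 1.98-fold in ICAM1 cells and 3.65-fold in F3 cells. Mylip stood at 63.5 and 27.7, with 57.6 and 43.2 in T cells.

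The Hedgehog receptor gene Ptch1 and the Hedgehog-binding gene Hhip, also chosen after their values were seen, were lower. The F3 share of kept cells was 24.2% and 17.7%, from which no difference in share is drawn, and its part in these ratios was not tested. Ptch1 stood at 17.8 and 7.88 and Hhip at 39.6 and 16.4. In F3 cells, where they were highest, Ptch1 stood at 51.4 and 21.0 and Hhip at 163 and 102. Among the long non-coding RNAs kept in the nucleus, Malat1 stood at 7387 and 17370 in preadipocytes and Neat1 at 241 and 565, with Neat1 at 163 and 187 in T cells. For Malat1 the T cell level is not given here, so its difference is not shown to be particular to preadipocytes.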
